A study of Homo sapiens with 7 samples.

Results

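The genes that encode the proteins of the cytosolic ribosome were followed in PF-382 and MOLT-14, human cell lines from T-cell acute lymphoblastic leukaemia, across 7 RNA sequencing libraries. Members were the protein-coding genes whose symbol has the form of a ribosomal protein name (RPL or RPS with a number, RPLP0 to RPLP2, RPSA). The rule found 80 members, 32 named for the small subunit and 48 named for the large subunit, among 60662 genes in each file, of which 20004 were protein coding. It used names only and no measured value. Genes of the ribosome with other names (FAU and RACK1 among them) are outside it and are given apart, as is RPL6, which the files list under the clone name AC004086.1 (ENSG00000089009).

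The libraries fall into 4 groups that differ in STAG2, which belongs to cohesin, the complex that tethers sister chromatids and extrudes chromatin loops. PF-382 STAG2 knockout (KO, 3 libraries) was made by delivering Cas9 with a guide RNA as a ribonucleoprotein, and PF-382 wild type (WT, 2 libraries) had no treatment. MOLT-14 transduced with STAG2 and MOLT-14 transduced with an empty vector (EV) had 1 library each. All cells were grown in the same serum-containing RPMI medium and were otherwise untreated. The labels name each PF-382 library with a code and do not say whether the codes are clones or separate cultures. The code of KO library 1 begins with SA, like those of both WT libraries, and those of KO libraries 2 and 3 begin with SB, letters that the labels do not explain. Hence p-values measure the spread between these libraries.

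Each ribosome needs close to equal numbers of its proteins, and their messenger RNAs are among the most abundant in growing cells. In vertebrates most of these messengers begin with a 5′ terminal oligopyrimidine (TOP) tract, a C followed by a run of C and T, through which LARP1 and mTOR signalling set their translation and stability. Ribosomal proteins are joined to ribosomal RNA in the nucleolus by a separate set of assembly factors. In leukaemia, RPL5, RPL10, RPL11 and RPL22 are known as genes that are mutated or deleted in T-lineage cases.

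The libraries held 65262329, 93970572 and 81304948 counts in KO and 32609485 and 33145516 counts in WT, with 45013450 in the STAG2-transduced and 38678382 in the EV library, so that a floor of 3 counts lies at 0.0319 to 0.0920 CPM (counts scaled to library size). Of the 7 T-lineage markers examined, 6 or 7 reached 1 CPM in every library. No erythroid marker had a count, and the summed myeloid markers stayed at 0.0655 to 0.0956 CPM in KO and 0.0648 to 0.0938 CPM in WT, against 1.19 CPM in the STAG2-transduced and 2.01 CPM in the EV library. The summed B-lineage markers were 3.91 to 19.3 CPM in KO and 7.06 and 38.0 CPM in WT, with 1 of 5 markers at 1 CPM or more. They were 42.2 CPM in the STAG2-transduced and 30.3 CPM in the EV library, again with 1 of 5 at 1 CPM or more. The summed stromal and epithelial markers were 7.30 to 9.95 CPM in KO and 10.7 and 26.9 CPM in WT, against 1.095 CPM in the STAG2-transduced and 1.19 CPM in the EV library. Small RNA genes took 11.96% to 13.98% of the counts in KO, 14.9% and 21.0% in WT, 9.27% in the STAG2-transduced and 4.87% in the EV library. Mitochondrially encoded genes took 0.222% to 0.322% in KO, 0.5502% and 0.5998% in WT, 1.43% in the STAG2-transduced and 4.92% in the EV library. The part of these differences in the results was not tested. STAG2 itself was at 256, 180 and 195 CPM in KO and 334 and 567 CPM in WT (log2 change -1.13, adjusted p = 0.0218), a call that was lost without KO library 2 or 3. In MOLT-14 it was at 137 CPM in the STAG2-transduced and 1.15 CPM in the EV library.

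Within the family, levels were compared as shares of the members' summed TPM, a unit of transcript abundance that is scaled by length. An equal share over 80 members would be 1.25%. The highest mean shares over the 7 libraries were those of RPS27 (3.07%), RPS18 (2.90%), RPL37A (2.88%), RPL41 (2.60%) and RPS29 (2.33%), which together held 13.8%. The lowest were those of RPL10L at 0, RPL3L (0.000924%), RPS27L (0.0193%), RPL39L (0.0430%) and RPL22 (0.251%). RPL10L is a copy of RPL10 used in the testis, RPL3L a copy of RPL3 used in striated muscle, and RPS27L and RPL39L are copies of RPS27 and RPL39. RPL10L had no count in any library, and RPL3L had 4, 5 and 1 counts in KO and 4 and 4 counts in WT. Both failed the filter on low counts in PF-382, which left 78 members tested there. Small-subunit members made up 43.4% to 44.2% of the family's TPM in KO, 43.7% and 44.1% in WT, 42.9% in the STAG2-transduced and 44.0% in the EV library.

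In STAG2 KO cells the family as a whole was lower than in WT cells, and RPS26 was the exception. Members took 7.57%, 7.995% and 7.22% of the protein-coding counts in KO, against 10.3% and 10.7% in WT. The mean was 7.59% ± 0.389 in KO (SD, n = 3) and 10.5% ± 0.269 in WT (SD, n = 2), and the groups did not overlap. An exact two-sided permutation test gave p = 0.2, the smallest value that 3 libraries against 2 allow. By TPM the family held 20.3% ± 0.995 of the protein-coding total in KO (SD, n = 3) and 27.6% ± 0.877 in WT (SD, n = 2). The median member was at 734, 746 and 720 CPM in KO and at 882 and 1018 CPM in WT. In a bulk sample, fewer cells of a kind and less RNA per cell cannot be told apart.

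Gene by gene, edgeR's quasi-likelihood test called 21 of 78 members lower in KO (26.9%), where 14.6% of all 17442 genes tested were called lower, and 1 member higher (1.28%), where 15.8% of all genes were called higher. In either direction 28.2% of members and 30.4% of all genes were called, so the family differed little from the background in how often it was called. It differed in direction and evenness. The log2 change was below 0 for 73 of 78 members, with a median of -0.37 against -0.02 over all genes tested and 0.09 over protein-coding genes. The middle quartiles of the members lay between -0.50 and -0.22, while those of all genes lay between -0.60 and 0.43. In all, 64 of 78 members were within 0.3 of the family median. The median member was at 720 to 1018 CPM over the PF-382 libraries, and the background was not matched for level. The part of level in the evenness was not tested. In 55 members (70.5%) every KO library lay below both WT libraries, which held for 28.3% of all genes, and in 3 members (3.85%) every KO library lay above both, which held for 31.8% of all genes. The separation depended on the scale. By the authors' TPM 1 member (1.28%) had every KO library below both WT libraries, where 18.8% of all genes did, and 3 (3.85%) had every KO library above both, where 31.0% of all genes did. The median log2 change of TPM (pseudocount 1) was -0.14 over members, 0.05 over all genes tested and 0.13 over coding genes, with 55 of 78 members below 0. Both subunits had a median of -0.37, with 8 of 32 small-subunit and 13 of 46 large-subunit members called lower. The number called lower rested on single libraries, with 5, 1 and 1 left without KO library 1, 2 or 3, 52 without WT library 1 and 20 without WT library 2. The median kept its sign in each of these fits but was -0.19 without WT library 2. With the SA or SB letters of the code as a term, chosen after seeing the data, no member was called lower, RPS26 was called higher and the median was -0.34, while over all genes 291 were called higher and 147 lower.

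**Figure D1:**
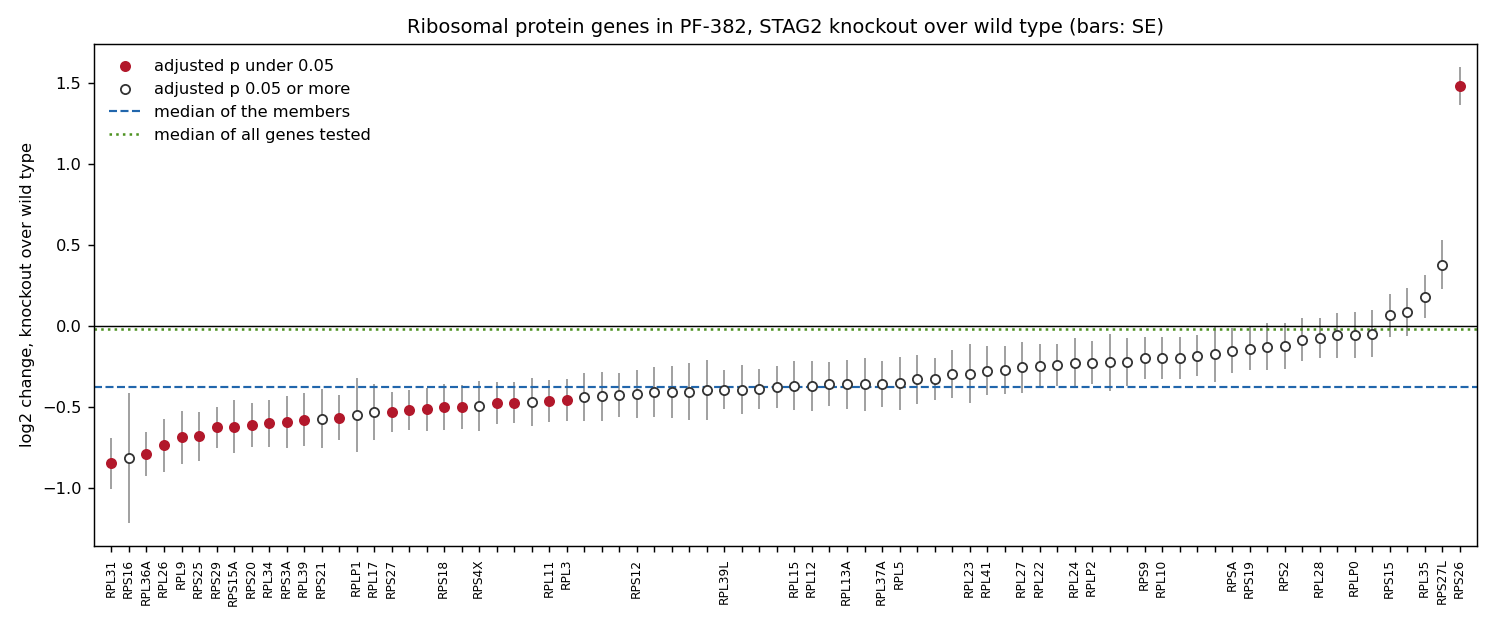
Each point is the log2 change (KO over WT) of 1 of the 78 members tested in PF-382, ordered by size, with its SE as a bar, and names are given for some members; filled points passed an adjusted p of 0.05. Most members lie near the dashed family median of -0.37, 21 of those below 0 are filled, and RPS26 stands alone at 1.48.

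The members that fell furthest are spread over both subunits and over several sites on the ribosome. RPL31, which sits at the rim of the peptide exit tunnel, was at 642, 620 and 568 CPM in KO and 942 and 1213 CPM in WT. Its log2 change was -0.85 ± 0.16 (SE, adjusted p = 0.0114). RPL36A, a large-subunit protein near the exit site for transfer RNA, was at 381, 375 and 331 CPM in KO, against 573 and 655 CPM in WT, a log2 change of -0.79 ± 0.14 (SE, adjusted p = 0.00933). All KO libraries lay below both WT libraries for each of these genes. RPL36A was called lower in every fit that left out a library, while RPL31 was not called without KO library 2 or 3.

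The next in size were RPL26 (log2 change -0.73), a protein at the peptide exit tunnel, RPL9 (-0.69), RPS25 (-0.68), a small-subunit protein that viral internal ribosome entry sites depend on, RPS29 (-0.62), RPS15A (-0.62) and RPS20 (-0.61). RPL26 was at 565, 537 and 462 CPM in KO and 752 and 949 CPM in WT. RPS25 was at 597, 561 and 498 CPM in KO and 787 and 949 CPM in WT. The calls of RPL26, RPL9, RPS25, RPS15A and RPS20 were each lost when any KO library was left out, and that of RPS29 without KO library 2 or 3. The remaining 13 called members had log2 changes of -0.60 (RPL34) to -0.46 (RPL3). Among them were RPS3A, which stood at 1949, 2054 and 1994 CPM in KO, against 2571 and 3340 CPM in WT, and RPL11, described below.

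RPS26 left the family trend. RPS26 is a small-subunit protein at the messenger RNA exit site, and loss of 1 of its copies causes Diamond-Blackfan anaemia. It was at 199, 205 and 221 CPM in KO and at 70.9 and 74.97 CPM in WT, so that the groups lay far apart and each was tight. The log2 change was 1.48 ± 0.12 (SE, adjusted p = 0.00218), with all 3 KO libraries above both WT libraries. It was called higher under every alternative in which it was tested, with a log2 change between 1.32 and 1.56. As a share of the family's TPM, RPS26 held 0.293%, 0.289% and 0.337% in KO, 0.0880% and 0.0788% in WT, 0.621% in the STAG2-transduced and 0.587% in the EV library of MOLT-14. PF-382 WT therefore had the lowest RPS26 of the 4 groups, and KO cells lay between WT and MOLT-14.

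RPS26 spans chr12:56041351-56044697 on the plus strand (GRCh38, GENCODE 29) and overlaps an antisense gene (ENSG00000257449, AC034102.4 in the files). The antisense gene was at 0.0164 CPM in KO library 1 and had no count in the other 6 libraries. With the counts of both genes summed, an alternative chosen after seeing the data, the log2 change remained 1.48. The strand setting of the counting is not given in the sources used here. The files list 30 genes named as RPS26 pseudogenes, whose counts came to 0.0455% of those of RPS26, but RSEM divides reads shared between copies, so the split remains an estimate. Within 100 kb on either side lie 12 other coding genes, all tested. Of these, 4 rose in KO: ESYT1 (log2 change 1.70), PA2G4 (1.22), ZC3H10 (0.87) and CDK2 (0.44). SUOX fell by 1.73 and RAB5B (AC034102.1 in the files) fell by 0.41 on the log2 scale. Over all genes tested, 15.8% were called higher and 14.6% lower, and whether this window differs from the rest was not tested. The calls of ESYT1 and PA2G4 held without each library, that of ZC3H10 was lost without KO library 2 or 3, and those of CDK2, SUOX and RAB5B when any KO library was left out, that of RAB5B also without WT library 2. RPL41, the other family member in this window, had a log2 change of -0.27 (adjusted p = 0.203), near the family median.

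**Figure D2:**
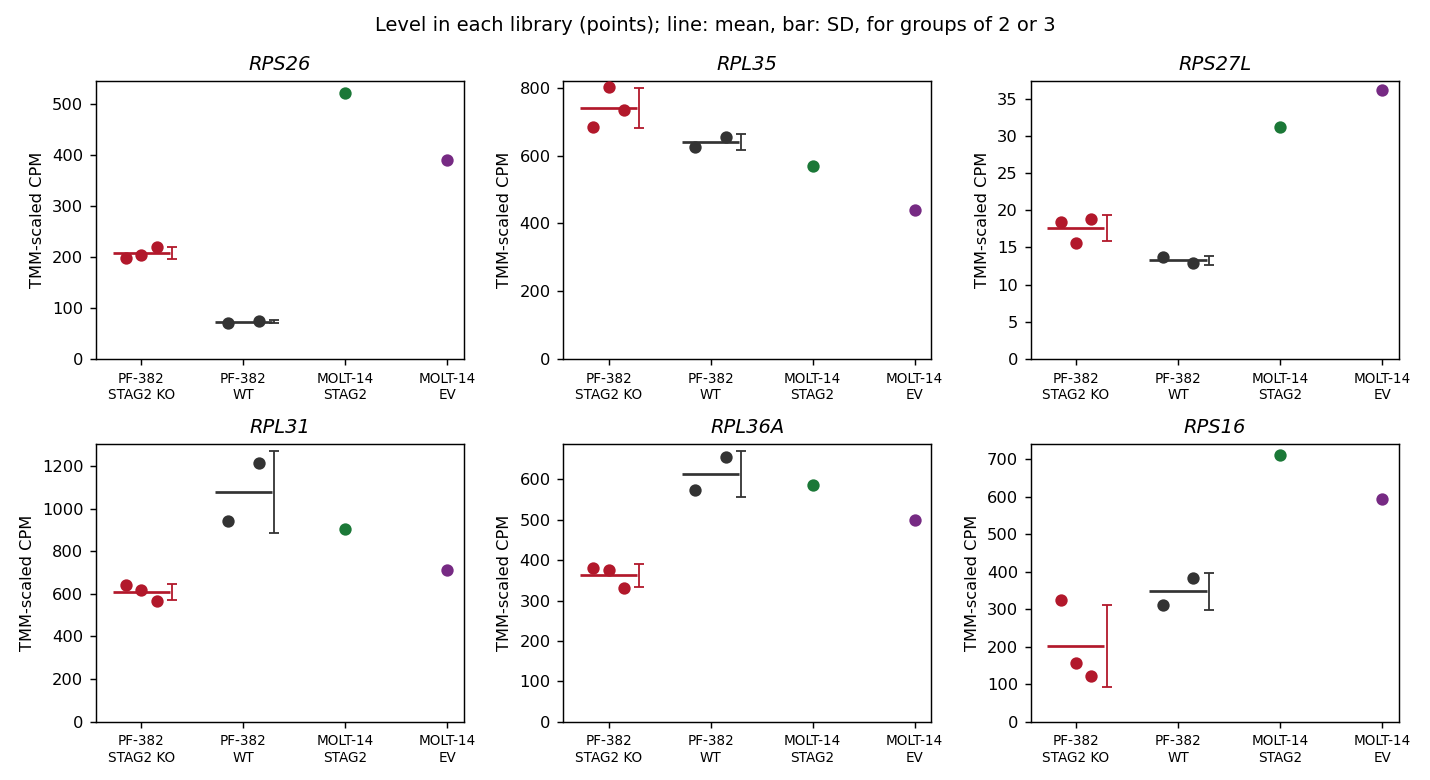
TMM-scaled CPM of 6 members in every library, with each axis from 0; lines are means and bars SDs for KO (n = 3) and WT (n = 2), and MOLT-14 has 1 library per group. RPS26 is at 199 to 221 CPM in KO and 70.9 to 74.97 CPM in WT, RPL31 and RPL36A run the other way, and RPS16 is spread widely among the KO libraries.

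To ask which members depart from the trend itself, libraries were scaled so that the typical member was equal in all of them. In this fit 5 of 78 members (6.41%) were higher in KO relative to the family, where 30.0% of all genes were higher by the same scale, and 2 members (2.56%) were lower, where 7.81% of all genes were lower. In either direction 8.97% of members and 37.8% of all genes were called. Those higher included RPS26 (log2 1.85 ± 0.14, SE, adjusted p = 0.00173), RPS27L (0.74 ± 0.21, adjusted p = 0.0306), RPL35 (0.54 ± 0.13, adjusted p = 0.0153) and RPS15 (0.43 ± 0.11, adjusted p = 0.0240). The 2 lower were RPL31 (-0.48 ± 0.12, adjusted p = 0.0170) and RPL36A (-0.43 ± 0.11, adjusted p = 0.0245). In fits that left out a library, RPS26 alone kept its call in all 5, at 1.75 to 1.94. It was the only member called without KO library 2 or without KO library 3, and 3 members were called without WT library 2.

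RPL35, a large-subunit protein at the exit tunnel, was at 684, 802 and 734 CPM in KO and 624 and 656 CPM in WT. All KO libraries lay above both WT libraries, but before family scaling its log2 change of 0.18 was not called (adjusted p = 0.332). RPS27L, the copy of RPS27, was at 18.5, 15.6 and 18.8 CPM in KO and 13.7 and 12.9 CPM in WT, without overlap and at a far lower level. Its log2 change of 0.38 was likewise not called (adjusted p = 0.102). RPS15, a small-subunit protein on the decoding side, had a log2 change of 0.07 before family scaling, which changed sign when only protein-coding genes were scaled or upper-quartile scaling was used.

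The start sites of members that left the trend were set beside those of members that did not, because the TOP tract is the feature most of the family shares. RefSeq promoter entries (GRCh38.p14) were found for 63 of 80 members. The tract was scored as C at an annotated start followed by at least 4 further C or T. The 20 bases before and 20 after the start are shown with the unbroken C and T run from the start in capitals. RPS26, RPS27L and RPS15, higher relative to the family, lie at chr12:56041898-56041937 (plus strand), chr15:63157458-63157497 (minus strand) and chr19:1438376-1438415 (plus strand).
RPS26: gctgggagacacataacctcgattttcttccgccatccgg
RPS27L: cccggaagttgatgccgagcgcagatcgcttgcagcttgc
RPS15: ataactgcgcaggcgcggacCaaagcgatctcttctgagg
RPL35 was also higher relative to the family, at chr9:124861938-124861977 (minus strand).
RPL35: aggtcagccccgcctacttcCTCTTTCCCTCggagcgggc
RPL31 and RPL36A, lower relative to the family, lie at chr2:101002269-101002308 and chrX:101390991-101391030 (both plus strand).
RPL31: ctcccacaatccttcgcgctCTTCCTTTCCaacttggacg
RPL36A: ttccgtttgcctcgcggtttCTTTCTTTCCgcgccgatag
RPS27 and RPL37A, abundant members near the family trend, lie at chr1:153990742-153990781 and chr2:216498824-216498863 (both plus strand).
RPS27: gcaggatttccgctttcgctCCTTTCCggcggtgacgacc
RPL37A: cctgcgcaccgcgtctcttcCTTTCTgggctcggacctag

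At RefSeq's start, RPS26, RPS27L and RPS15 thus lack the tract as scored here, and the other 5 have it. Over the family the tract was present in 46 of 63 members (73.0%) and in 6.35% of 14906 coding genes with an entry. Members with it had a median log2 change of -0.39 in KO, with 45 of 46 below 0, and the 16 tested members without it had a median of -0.25, with 13 below 0. This difference was not tested, and the start used depends on the annotated transcript. The motif CCGGAAG, searched on both strands from 250 bases before to 20 after the start, was in 34.9% of members and 16.0% of coding genes. AAGATGGC, searched on both strands of the same window, was in 4.76% of members and 2.95% of coding genes, and TATAAA, on the sense strand only, in 4.76% and 8.28%.

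Apart from RPL3L, which had few counts, RPS16 and RPLP1 varied most among the KO libraries. The SD of the log2 level relative to the family over the 3 KO libraries had a median of 0.0696 over 79 members, and for RPL3L it was 1.24. For RPS16, a small-subunit protein that contacts the transfer RNA, it was 0.732. RPS16 was at 326, 157 and 122 CPM in KO and 313 and 383 CPM in WT, so that KO library 1 lay between the WT libraries and the other KO libraries well below them. Its log2 change of -0.81 was the second most negative in the family but was not called (adjusted p = 0.166). For RPLP1, a protein of the acidic stalk that recruits elongation factors, the SD was 0.370. RPLP1 was at 705, 493 and 424 CPM in KO and 764 and 788 CPM in WT (log2 change -0.55, adjusted p = 0.110). The rest of the stalk, RPLP0, RPLP2 and their anchor RPL12, had log2 changes of -0.05 to -0.37, with none called. For RPS16 and RPLP1 the KO library with the SA code lay above both with the SB code, and the part of this in the spread was not tested.

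Several members have a paralogue, and whether these replace them in the ribosome was not measured. RPL7L1 (250, 256 and 241 CPM in KO, 184 and 149 CPM in WT) and RPL26L1 (39.4, 42.7 and 40.4 CPM in KO, 29.2 and 31.5 CPM in WT) were called higher, with log2 changes of 0.55 (adjusted p = 0.0247) and 0.40 (adjusted p = 0.0408). Both calls were lost when any KO library was left out and under upper-quartile scaling, and that of RPL26L1 also without WT library 1. RPL26 itself fell, so this pair ran in opposite directions in KO. RPL39L was at 41.9, 38.5 and 37.1 CPM in KO and 53.5 and 47.4 CPM in WT (log2 change -0.39, adjusted p = 0.0501), beside -0.58 for RPL39. RPL22L1 had a log2 change of -0.29 (adjusted p = 0.177) and RPL36AL one of 0.23 (adjusted p = 0.235). RPL36AL stood at 147, 154 and 147 CPM in KO and 110 and 140 CPM in WT, without overlap and against the direction of RPL36A.

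Of the 4 members known from T-lineage leukaemia, RPL11 was called lower, at 708, 683 and 668 CPM in KO and 879 and 977 CPM in WT (log2 change -0.46, adjusted p = 0.0366), a call lost when any KO library was left out. RPL5 (-0.35, adjusted p = 0.146), RPL22 (-0.25, adjusted p = 0.209) and RPL10 (-0.20, adjusted p = 0.284) were not called. RPL5 and RPL11 form with 5S ribosomal RNA a particle that binds MDM2, a ubiquitin ligase. The factors that assemble this particle ran the other way: RPF2 (log2 change 1.28, adjusted p = 0.00397) and HEATR3 (1.05, adjusted p = 0.0102) rose, as did RRS1 (1.26, adjusted p = 0.0210), whose call was lost when any KO library was left out. MDM2 had a log2 change of 0.15 (adjusted p = 0.560). Of 17 members mutated in Diamond-Blackfan anaemia, RPS26 rose and 4 fell, among them RPS29 and RPL26, with a median of -0.37 over the 17. Of all genes tested 30.4% were called in either direction, so this list was called about as often as the rest.

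Messengers that share the TOP tract but encode other proteins lay on the same side as the family. Of 15 such genes 6 fell, none rose, and 14 had a log2 change below 0, with a median of -0.45. Over all genes tested, 14.6% were called lower and 15.8% higher. NAP1L1, a histone chaperone, fell by 0.79, and the initiation factor subunits EIF3H and EIF3F fell by 0.64 and 0.57 on the log2 scale. Without KO library 2 or 3 none of the 15 was called. Of the ribosome genes with other names, FAU had a log2 change of 0.07 and RACK1 one of -0.21, with neither called. RPL6 (AC004086.1 in the files), a large-subunit protein, was at 920, 985 and 844 CPM in KO and 681 and 968 CPM in WT, with overlap between the groups. Its log2 change of 0.12 was not called (adjusted p = 0.639) and turned to -0.0349 under upper-quartile scaling and -0.0982 without WT library 1. Of 10 genes that control TOP messengers, RPS6KB2 (log2 change 0.66) and EIF4EBP2 (0.67) rose and RHEB, the activator of mTOR, fell by 0.70, where 30.4% of all genes were called, so these were called as often as the rest. The call of RHEB was lost when any KO library or WT library 2 was left out, and that of RPS6KB2 without KO library 2.

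In KO against WT the machinery that builds ribosomes was on the opposite side from their proteins. Of 44 nucleolar assembly genes 40 rose and none fell, with a median log2 change of 1.15 and all 44 above 0. Over all genes tested, 15.8% were called higher and 14.6% lower, which is the background for each list below. UTP20, of the small-subunit processome, rose by 2.15, and NOP56 and NHP2, core proteins of the guide RNA particles that modify ribosomal RNA, rose by 1.54 and 1.46 on the log2 scale. In fits without 1 library 33 to 41 of the 44 were called higher. Of 8 chaperones that carry single ribosomal proteins 6 rose, among them GRWD1 for RPL3 (1.53), BCCIP for RPL23 (1.19) and LTV1, which acts on the small-subunit head (1.16), and NAP1L1 fell. Of 11 RNA polymerase I genes tested 4 rose, led by POLR1A (1.38), POLR1B (1.34) and POLR1C (0.94), and POLR1D fell by 0.45, a call lost when any KO library was left out. Mitochondrial ribosomal proteins, which share the name but not the ribosome, also differed from the cytosolic family. Of 78 tested 46 rose and 1 fell (MRPL10, -0.48, a call lost when any KO library was left out), with a median of 0.56, and MRPL27 (1.37), MRPS7 (1.30) and MRPL11 (1.28) were among the highest. The medians of these 4 lists stayed above 0 and that of the other TOP messengers stayed below 0 under RLE, upper-quartile and coding-only scaling and without each library.

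**Figure D3:**
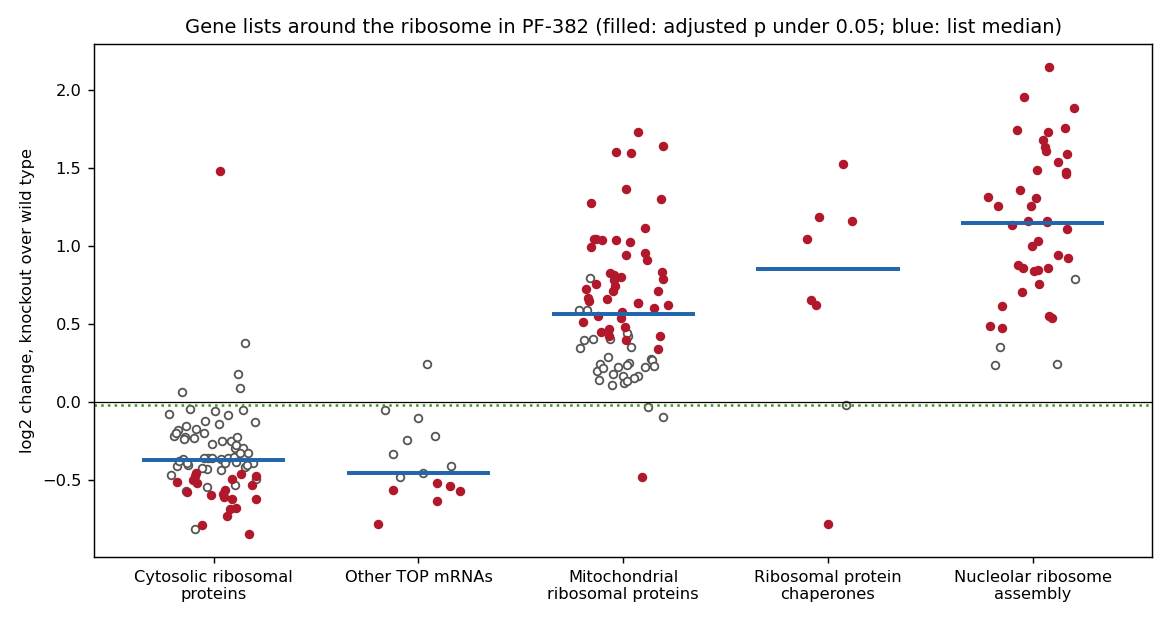
Log2 change (KO over WT) of every tested gene in 5 lists, with filled points past an adjusted p of 0.05, blue lines at the list medians and a dotted line at the median of all genes. Cytosolic ribosomal proteins and other TOP messengers have medians of -0.37 and -0.45, while mitochondrial ribosomal proteins, chaperones and nucleolar assembly genes have medians of 0.56, 0.85 and 1.15.

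Ribosomal protein introns carry many small nucleolar RNAs, which guide the modification of ribosomal RNA. GENCODE places 60 of them within 28 members. Only 10 could be tested, and all 10 fell in KO, where 14.6% of all genes tested were called lower. Their median log2 change was -2.22, against -0.39 for the 28 host genes. The largest falls were those of SNORA10 (-4.88) and SNORA64 (-4.78), both in RPS2, whose own log2 change was -0.12. The same direction held for small nucleolar RNAs at large, of which 63 of 79 tested fell and 2 rose. Without 1 KO library 3 to 5 of the 10 and 25 to 41 of all were called lower, and without WT library 1 the counts were 6 and 34. The median of those inside members was -1.14 without WT library 1 and -3.10 without WT library 2, where 16 could be tested. The share of all small RNA genes in the counts, 11.96% to 13.98% in KO and 14.9% and 21.0% in WT, moved with this, and its part in the result was not tested.

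In MOLT-14, transduction of STAG2 was compared with the empty vector in 1 library each, so there is no replicate check and no p-value. The log2 ratio of CPM was above 0 for 74 of 78 members (94.9%), against 57.6% of the 11442 genes that reached 5 CPM in at least 1 library, and below 0 for 4 members, against 42.4%. It had a median of 0.41, against 0.05 over those genes. The 15 other TOP messengers had a median of 0.42, with 14 above 0. The 44 nucleolar assembly genes, higher in KO, had a median of 0.04 here, with 26 above 0. The 78 mitochondrial ribosomal proteins had a median of 0.13, with 59 above 0. At a threshold of 1.5-fold, 11 members (14.1%) were higher with STAG2, where 4.18% of all genes were, and no member was lower, where 3.26% of all genes were. The members took 11.3% of protein-coding counts in the STAG2-transduced and 9.71% in the EV library. The highest ratios were those of RPL13A (0.97), RPL3 (0.74), RPL26 (0.68), RPL17 (0.68) and RPL28 (0.67). RPL13A, which in human cells also acts in silencing of inflammatory messengers, was at 2623 CPM in the STAG2-transduced and 1357 CPM in the EV library, with a 95% binomial interval of 0.96 to 0.98. The lowest were those of RPS27L (-0.19), RPL39 (-0.08), RPS12 (-0.03), RPS19 (-0.02) and RPL9 (0.00). The direction depended on the scale: by the authors' TPM the median log2 ratio was -0.17. TPM is a share of all features, and small RNA genes held 9.27% of the counts in the STAG2-transduced and 4.87% in the EV library. The part of small RNA genes in the turned direction was not tested. As a share of protein-coding TPM alone, the members held 27.8% in the STAG2-transduced and 25.8% in the EV library.

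By their labels the contrasts of the lines run opposite ways in STAG2, although STAG2 RNA was still at 180 to 256 CPM in KO. On the CPM scale 70 of the 78 members were lower in KO than in WT and higher with STAG2 than with EV, 3 were lower in both contrasts and 4 higher in both. By the authors' TPM these counts were 8, 47 and 4, and 19 members were higher in KO and lower with STAG2. The 70 on the CPM scale follow largely from the 73 of 78 members below 0 in KO and the 74 of 78 above 0 with STAG2. A link between the contrasts gene by gene was not tested. On the CPM scale RPS27L alone was higher in KO and lower with STAG2, at 31.3 CPM in the STAG2-transduced and 36.2 CPM in the EV library. RPS26 was among the 4, at 523 CPM in the STAG2-transduced and 390 CPM in the EV library (log2 ratio 0.44, 95% binomial interval 0.41 to 0.47), in the middle of the family. By the authors' TPM its order in MOLT-14 turned, at 751 in the STAG2-transduced and 821 in the EV library, while in PF-382 it was at 221, 198 and 206 TPM in KO and 52.0 and 73.2 TPM in WT. The log2 change of RPS26, KO over WT in PF-382 and EV over STAG2 in MOLT-14, differed between the lines by 1.93, PF-382 minus MOLT-14 (edgeR, adjusted p = 0.0477), in a fit chosen after seeing the data that assumes single MOLT-14 libraries vary like those of PF-382. It was the only 1 of 79 members called there, where 0.607% of 20100 genes were.

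**Figure D4:**
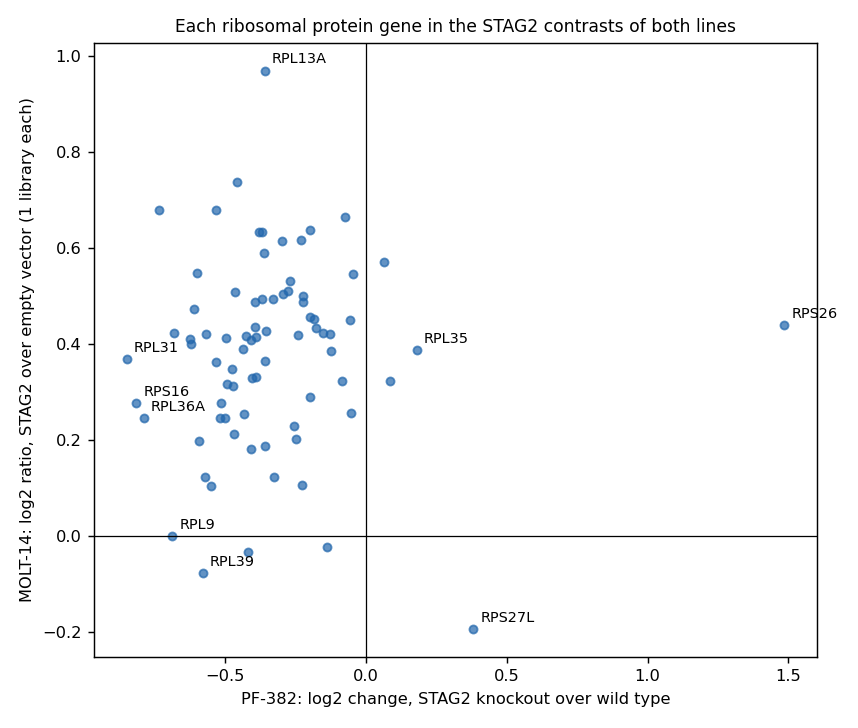
Each point is a member, placed by its log2 change in PF-382 (KO over WT, horizontal) and its log2 ratio of CPM in MOLT-14 (STAG2 over EV, vertical, 1 library each). The upper left holds 70 of 78 members, RPS27L is alone at the lower right, and RPS26 lies far to the right at 1.48 and 0.44.

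Between the lines the family showed no common direction with all libraries in the fit. With all 7 libraries in 4 groups, 15 of 79 members (19.0%) were higher in PF-382 than in MOLT-14, where 27.0% of 20100 genes were higher, and 14 (17.7%) were lower, where 28.4% of genes were lower. In 12 members (15.2%) every PF-382 library lay above both of MOLT-14 and in 12 below both, which held for 26.3% and 30.2% of all genes. The median log2 difference was 0.03, and it turned to -0.11 under upper-quartile scaling, with 7 higher and 18 lower. The split rested on single MOLT-14 libraries: without the EV library 2 members were higher and 12 lower (median -0.17), and without the STAG2-transduced library 16 were higher and 6 lower (median 0.19). Single members differed widely. RPS26 was lower in PF-382 by the largest margin among well-counted members, at a log2 difference of -1.88 ± 0.10 (SE, adjusted p = 7.08e-05). RPL3L, at 0.0655, 0.0578 and 0.0137 CPM in KO and 0.125 and 0.130 CPM in WT, was at 1.97 CPM in the STAG2-transduced and 2.23 CPM in the EV library (log2 -4.74).

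RPLP1 was at 705, 493 and 424 CPM in KO and 764 and 788 CPM in WT, against 1764 CPM in the STAG2-transduced and 1662 CPM in the EV library (log2 -1.40, adjusted p = 0.00179). RPS16 had a log2 difference of -1.30 (adjusted p = 0.0208) and RPS27L one of -1.14 (adjusted p = 0.000739). RPS4X (-0.69), RPL3 (-0.69) and RPL26 (-0.61) followed. The calls of RPS16, RPS4X, RPL3 and RPL26 were lost without the STAG2-transduced library.

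On the higher side stood RPL24, a large-subunit protein at the bridge between subunits, at 597, 634 and 612 CPM in KO and 615 and 797 CPM in WT, against 388 CPM in the STAG2-transduced and 256 CPM in the EV library. Its log2 difference was 1.06 ± 0.15 (SE, adjusted p = 0.00156), and every PF-382 library lay above both of MOLT-14. RPL39L (0.85), RPL15 (0.83), RPL27 (0.63), RPS15A (0.59), RPS21 (0.56), RPS3A (0.55) and RPS9 (0.53) followed. The calls of RPL15, RPL27, RPS15A, RPS21, RPS3A and RPS9 were lost without the EV library, those of RPS21 and RPS3A when any KO library or the STAG2-transduced library was left out, that of RPS15A without KO library 2 or 3 and that of RPS9 without KO library 2. RPL5, RPL10, RPL11 and RPL22 were not called, at 0.35, -0.03, -0.08 and -0.06.

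Among paralogues, RPL26L1 (log2 difference 1.05, adjusted p = 0.000707) and RPL36AL (1.01, adjusted p = 0.00116) were higher in PF-382 and RPL22L1 was lower (-1.02, adjusted p = 0.000993), while RPL7L1 was not called (-0.10, adjusted p = 0.487). RPL26 was lower where RPL26L1 was higher.

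Scaled to the family, 33 of 79 members took another place in the 2 lines, 17 higher in PF-382 (21.5%, against 24.7% of all genes) and 16 lower (20.3%, against 27.5%). The largest differences included those of RPL3L (-4.79), RPS26 (-1.91), RPLP1 (-1.44), RPS16 (-1.34), RPS27L (-1.17), RPL24 (1.02), RPL39L (0.82), RPL15 (0.78), RPS4X (-0.73), RPL3 (-0.72) and RPL26 (-0.65). Without the EV library 21 members were called. With WT as the sole PF-382 group 10 were called, and RPL26 and RPL39L were not among them. As a description, the correlation of log2 family shares over 75 members was 0.916 to 0.993 between PF-382 libraries, 0.966 between the MOLT-14 libraries and 0.681 to 0.845 between lines, over genes that share each library's depth and preparation.

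**Figure D5:**
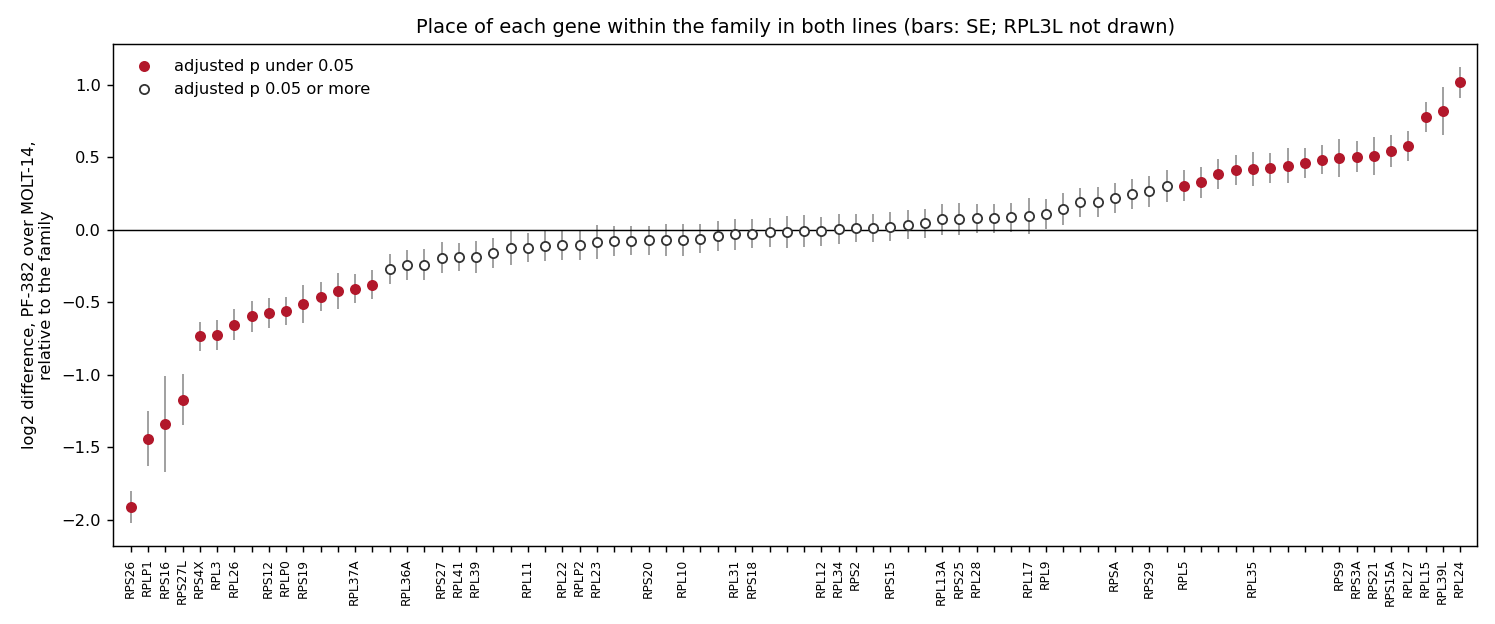
Log2 difference between PF-382 and MOLT-14 (PF-382 over MOLT-14) of 78 members after scaling to the family, with SE bars, and names are given for some members; filled points passed an adjusted p of 0.05, and RPL3L is not drawn. RPS26 is lowest at -1.91 and RPL24 highest at 1.02.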

How the data were processed

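Total RNA of freshly cultured cells was sequenced, per the labels' protocols. The deposited files give an expected count, TPM and FPKM per gene, per the file headers. STAR, RSEM and GRCh38 are named in the submitters' processing notes, while versions, annotation release and strand setting are not given in the sources used here. Expected counts deposited by the authors were rounded, and the 92 spike-in features were left out. The deposited TPM served for shares within the family and 1 alternative, and FPKM was not used. Reads shared between gene copies are divided by RSEM: 11 of 80 members had whole counts in every library.

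Libraries were fitted with edgeR 4.0.16 in R 4.3.3 (TMM scaling, filterByExpr, quasi-likelihood test, two-sided, Benjamini-Hochberg over all genes tested, threshold 0.05). The knockout fit used PF-382 libraries only. The family-scaled fits replaced TMM by the median of ratios over the members. The line fit used 4 groups with 3 residual degrees of freedom and contrasts the mean of the PF-382 groups with the mean of the MOLT-14 groups. SEs were derived from the log2 change and the F statistic. Printed CPM use TMM over all 7 libraries. For MOLT-14, log2 ratios of CPM (prior count 2) were taken over genes reaching 5 CPM in a library, with exact binomial intervals at 95% that, like the floor of 3 counts, cover counting error only.

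Replicates were numbered in accession order, which pairs nothing. Members, lists and tests were chosen with earlier results of these data known. The text names the 5 highest and lowest members by TPM, members failing the filter, up to 8 members called in each direction, all (or the 12 largest) called relative to the family, the 5 highest and lowest MOLT-14 ratios, all of the paralogue, T-lineage leukaemia and 5S lists and up to 3 genes with the smallest adjusted p from other lists. Other names, such as neighbours of RPS26, were chosen after their values were seen. Positions came from GENCODE 29, matched by gene identifier for all 80 members. Members were taken by the symbol in the files, so RPL6, listed under another symbol, enters no family value. Some results are not reported here. Fits were tested on simulated data. Alternatives were the deposited TPM, the letters of the library codes, other scalings, filters, DESeq2 1.42.0, whole-count genes, other designs and leaving out each library.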

Additional observations from a re-analysis of the deposited data

Results flagged for a closer look

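The log2 change of RPS26, KO over WT in PF-382 and EV over STAG2 in MOLT-14, differed between the lines by 1.93 (edgeR, adjusted p = 0.0477), in a test of the difference itself. In PF-382 all 3 KO libraries lay above both WT libraries, while in MOLT-14 the STAG2-transduced library, at 523 CPM, lay above the EV library, at 390 CPM. By the authors' TPM the order in MOLT-14 turned, with 751 in the STAG2-transduced and 821 in the EV library. MOLT-14 has 1 library per group, so its own effect has no replicate check. No group holds 4 or more libraries, so no test for an outlying library was made.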

How the results depend on the processing

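The 22 members called in KO against WT (21 lower) became 52 (51) under upper-quartile scaling (all-gene median then -0.18), 40 (39) with coding genes only, 41 (40) with DESeq2, 10 (9) with no filter, 40 (39) with a minimum of 1 CPM and 2 (2) among the 9 tested members with whole counts. With the SA or SB letters of the library code as a term (added after seeing the data) it was 1 (0), and 1 relative to the family. Leaving out a library gave 2 to 53 called and 1 to 52 lower. The family median was -0.54 with upper-quartile scaling and -0.49 to -0.19 without a library. Relative to the family 1 to 6 members were called without a library. RPS15 became -0.0959 with upper-quartile scaling, -0.0254 with coding genes only, -0.0161 with a minimum of 1 CPM and -0.0122 to 0.185 without a library (-0.00322 without KO library 2), and was called in none. RPL6 (AC004086.1) became -0.0349 with upper-quartile scaling and -0.0982 to 0.427 without a library (called at 0.427, without WT library 2). Against MOLT-14 the 29 called became 6 among members with whole counts, 18 in the additive fit, 6 with WT alone and 12 to 37 without a library. Relative to the family the 33 became 10 with WT alone and 21 to 34 without a library. RPL10, RPL11 and RPL22, uncalled, ranged from -0.258 to 0.186, -0.334 to 0.162 and -0.165 to 0.0258 without a library, each highest without the STAG2-transduced library, and were 0.0556, 0.138 and 0.0478 with WT alone. The MOLT-14 median of 0.41 was 0.44 with RLE, 0.36 with upper-quartile scaling, 0.37 with coding genes only, 0.25 with whole counts and -0.17 with TPM. Of all single-gene values under alternatives, 991 kept direction and call, 166 lost the call, 12 gained it, 36 moved and 13 changed sign. The cause was not tested. No paired analysis was possible because the labels give the libraries codes and no shared replicate numbers.

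At this depth RPL10L and RPL3L could not be tested in PF-382.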

Other observations

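Members on chromosome 3 leaned to PF-382 in the comparison of lines, a pattern noticed after seeing the values. Of 8 such members (RPL14, RPL15, RPL24, RPL29, RPL32, RPL35A, RPL39L and RPSA) 7 had a log2 difference above 0 and 5 were called higher in PF-382, with a median of 0.49. Without the EV library 2 were called higher, with a median of 0.25, and without the STAG2-transduced library 5, with a median of 0.73. Without KO library 2 the number was 3. Other coding genes on chromosome 3 had a median of 0.15, with 37.4% called higher.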
